A study of Mus musculus with 2 samples.

Results

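The mitochondrial ribosomal protein genes were taken as the protein-coding genes of GENCODE M21 whose symbol starts with Mrpl or Mrps followed by a digit. This gave 78 genes of 21911 coding genes on mm10. By textbook knowledge 77 of them encode subunits of the mitochondrial ribosome. Of these, 51 sit in the large subunit and 26 in the small subunit. Mrps18a and Mrps30 count among the large subunit proteins in spite of their symbols. Mrps36 carries a small subunit symbol, but its product is now assigned to the α-ketoglutarate dehydrogenase complex. The study consists of H3K36me3 ChIP-seq of E14TG2a.4, a male mouse embryonic stem (ES) cell line of strain 129/Ola. It is labelled as embryonic, of age 3.5 day, and no treatment is given. The 2 libraries are biological replicates of this 1 line, which comes from 1 donor, so the spread between them says nothing about other lines. Because each library comes from a bulk culture, a mark in fewer cells and less mark per cell cannot be told apart.

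Mitochondrial ribosomes translate the few proteins encoded by mitochondrial DNA, which are core subunits of the respiratory chain and of ATP synthase. Every protein of these ribosomes is itself encoded in the nucleus, made in the cytoplasm and imported, and most have a counterpart in bacteria while others are particular to mitochondria. H3K36me3 is laid down on the bodies of genes as RNA polymerase II elongates through them, through the SETD2 methyltransferase, and is low around active promoters. It therefore tends to follow transcription over the gene body.

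The deposited peak sets of the main processing run held 107779 peaks in replicate 1 and 98185 in replicate 2, which covered 139 and 127 Mb. The read depth of the libraries is not given in the sources used here. Marked genes are those with 10% or more of the annotated span in peaks in each replicate. All 6 ES cell markers (Pou5f1, Sox2, Nanog, Zfp42, Esrrb and Tdgf1) were marked. None of the 5 fibroblast markers, which would show feeder cells, and none of the 3 markers of other lineages was marked, and each of these 8 genes had 0% of its span in peaks in both replicates.

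Of the 78 members, 69 (88.5%) were marked, beside 37.2% of all coding genes. At least 50% of the span was covered in each replicate in 50 members (64.1%), beside 19.3% of all coding genes. Only Mrpl53 had no covered base in either replicate, a state shared by 50.1% of all coding genes. The median covered share of the members was 62.8% in replicate 1 and 59.6% in replicate 2 (61.2% ± 2.25, SD, n = 2), whereas the median over all coding genes was 0% in both. Among marked genes alone the medians lay closer, at 66.8 and 64.3% in members and 57.1 and 52.9% in all marked coding genes. The members are short, with a median length of 7894 bp among those marked, beside 19712 bp for all marked coding genes. The share of marked genes was nevertheless higher in members within each length class. Below 5 kb, 22 of 26 members were marked (84.6%), beside 22.6% of all coding genes of that length. Between 5 and 10 kb the count was 25 of 27 members, beside 34.6%, and between 10 and 20 kb it was 13 of 14, beside 48.2%. All 4 members of 20 to 50 kb were marked, beside 48.3%, and 5 of the 7 members above 50 kb, beside 31.0%.

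**Figure D1:**
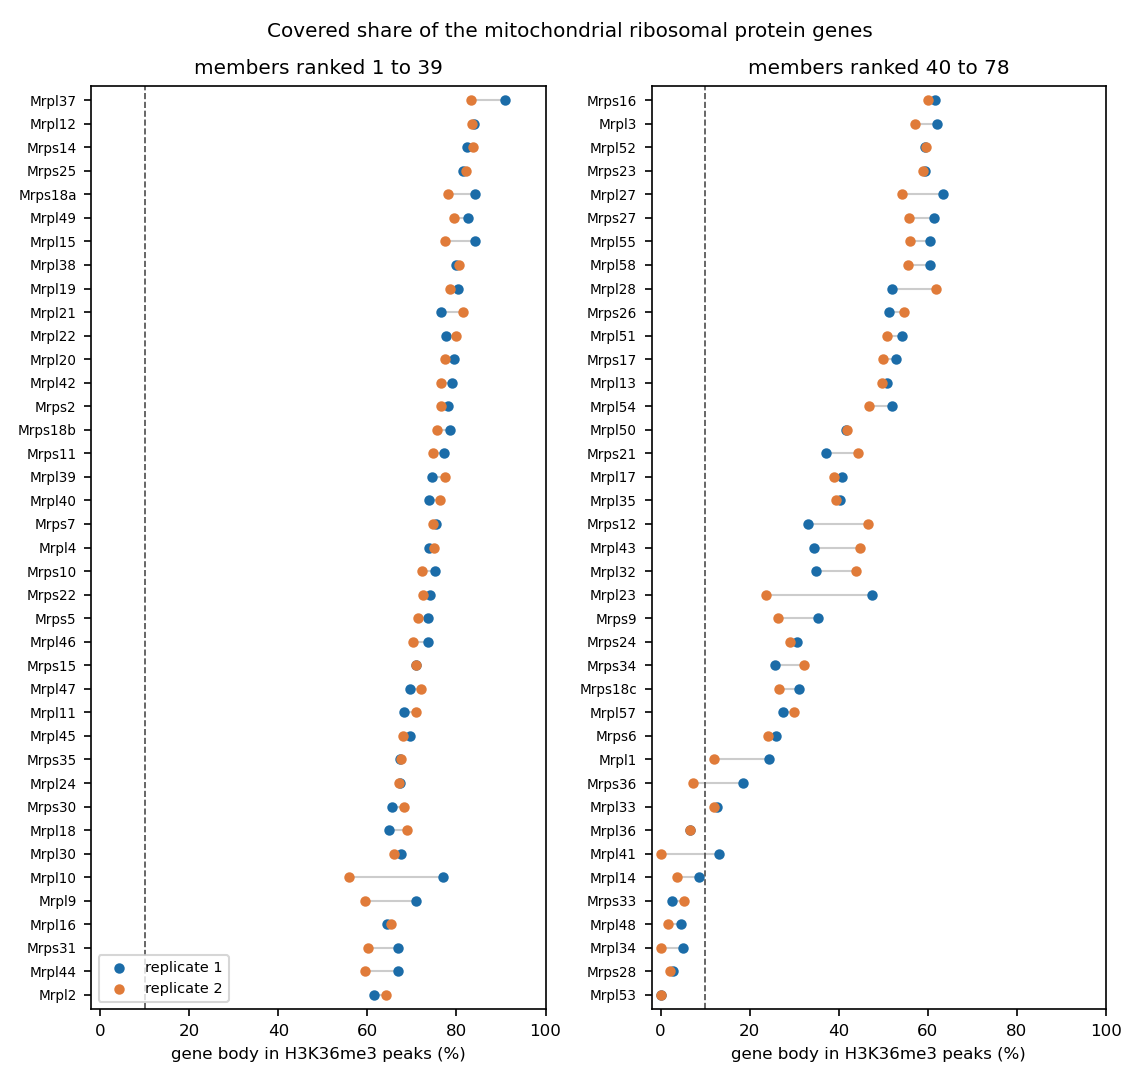
Covered share of the annotated span (%, x axis) of each of the 78 members, ranked by the mean of the replicates from the highest to the lowest. Blue points are replicate 1, orange points replicate 2, and the dashed line is the 10% threshold for a marked gene. Most members lie between 50 and 90%, and 9 fall below the line in at least 1 replicate.

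The replicates gave similar covered shares in most members. The shares of the 78 genes correlated with Pearson's r = 0.972 between the libraries, beside 0.987 over all coding genes. Both values are given as a description across genes that share both libraries. In marked members the shares differed by a median of 2.68 percentage points, beside 3.68 points in all marked coding genes. The largest differences among members were those of Mrpl23 (47.4 and 23.7%), a protein near the exit of the peptide tunnel, and Mrpl10 (77.1 and 55.9%), part of the stalk that binds translation factors. Mrps12, the protein next to the decoding site, had 33.0 and 46.5%, and Mrpl43 had 34.4 and 44.9%, so replicate 2 was the higher in both. Mrpl41 (13.1 and 0%), Mrpl1 (24.2 and 12.0%), Mrpl9 (71.0 and 59.6%) and Mrps36 (18.5 and 7.24%) were higher in replicate 1. Mrpl1 with these values and Mrpl33 with 12.7 and 12.1% lay just inside the 10% threshold. Mrps36 and Mrpl41 reached it in replicate 1 only, with 7.24 and 0% in replicate 2.

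The 10 marked members with the highest covered share, ranked by the lower replicate, came from both subunits. Mrpl12, the stalk protein that in human cells also binds the mitochondrial RNA polymerase, was covered over 84.0 and 83.6% of its 4453 bp. Mrpl37 had 90.8 and 83.4%, and Mrps14, which has a bacterial counterpart in the small subunit, had 82.3 and 83.7%. Mrps25 followed with 81.6 and 82.1%, Mrpl38 with 79.8 and 80.6% and Mrpl49 with 82.6 and 79.4%. Mrpl19 (80.5 and 78.5%), Mrps18a (84.2 and 78.1%), Mrpl22 (77.6 and 79.8%) and Mrpl15 (84.1 and 77.4%) completed the 10. The authors' fold enrichment, averaged over the whole span with 0 outside peaks, gave a related order. By the mean of the replicates it was highest in Mrpl49 (9.63 and 16.1), followed by Mrpl12 (9.34 and 13.1), Mrpl40 (8.60 and 11.6), Mrps2 (6.95 and 11.5) and Mrps18a (7.77 and 9.92). Its median over the marked members was 4.83 in replicate 1 and 6.02 in replicate 2, beside 3.55 and 4.11 in all marked coding genes. This order held below 5 kb (4.96 and 6.44, beside 3.96 and 4.99) and between 10 and 20 kb (5.84 and 7.56, beside 4.18 and 5.10). It did not hold between 5 and 10 kb (4.47 and 5.29, beside 4.55 and 5.70) or above 50 kb (1.09 and 1.04, beside 2.01 and 2.07). Between 20 and 50 kb the 4 members had 3.65 and 4.41, beside 3.62 and 4.09.

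In the large subunit 45 of 51 genes were marked, with a median covered share of 64.3 and 59.6% over all 51. In the small subunit 24 of 26 were marked, with medians of 61.5 and 59.4%. Genes for proteins with a bacterial counterpart were marked in 42 of 46 cases, with medians of 62.8 and 59.8%. Genes for proteins particular to mitochondria were marked in 27 of 31 cases, with medians of 65.5 and 59.6%. Over all members the lower and upper quartiles of the covered share were 35.8 and 74.4% in replicate 1 and 39.9 and 74.1% in replicate 2.

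Most genes that work with the mitochondrial ribosome were also marked, beside 37.2% of all coding genes. Among all coding genes 22.6% were marked below 5 kb, 48.2% between 10 and 20 kb and 48.3% between 20 and 50 kb. The median length of each group in this paragraph falls in 1 of these classes. The 5 subunits with other symbols, among them Dap3 and Ptcd3 of the small subunit, were all marked. A list of 17 genes held translation factors, such as the initiation factor Mtif2 and the elongation factor Tufm. It also held genes for other proteins linked to mitochondrial translation, namely Metap1d, Pdf, Oxa1l, Lrpprc and Slirp. Of these 17 genes, 16 were marked, and Metap1d had 1.34 and 1.02%. Of 27 genes for ribosome assembly and ribosomal RNA modification, 26 were marked, and Mettl15 had 0% in both replicates. Of 20 genes for charging mitochondrial tRNAs, 17 were marked; the exceptions were Fars2, Nars2 and Wars2, with at most 7.87%. Of 10 genes that transcribe or copy mitochondrial DNA, 9 were marked, and Top1mt had 9.49 and 14.4%. The 84 cytoplasmic ribosomal protein genes, with 81 marked, differed from the members in extent: their median covered share was 80.0 and 81.9%, and their median length 3328.5 bp.

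H3K36me3 began inside the members and not at their annotated start. In marked members the median distance from the start to the first covered base was 1459 bp in replicate 1 and 1532 bp in replicate 2, beside 2072 and 2294 bp in all marked coding genes. This distance lay between 500 and 3000 bp in both replicates in 59 of 69 marked members (85.5%), beside 54.8% of all marked coding genes. The replicates placed it within 200 bp of each other in 47 of 69 members (68.1%), beside 49.0%. By Spearman's rho across genes, the replicates agreed less well in marked members (0.83) than in all marked coding genes (0.89). Below 10 kb the distances lay closer together. In the class of 5 to 10 kb, the median was 1459 and 1524 bp in 25 members, beside 1620.5 and 1695.5 bp in all marked coding genes, and below 5 kb it was 1244 and 1174 bp in 22 members, beside 1126.5 and 1118 bp. The 4 marked members of 20 to 50 kb had a median of 1894.5 and 2278.5 bp, beside 2406 and 2840 bp, and the 5 above 50 kb had 3145 and 4362 bp, beside 3733 and 5155 bp. Within the members the distance rose with gene length (Spearman's rho = 0.48 and 0.57 over 69 genes, as a description). As a percentage of gene length it was 21.8 and 21.7% at the median, beside 13.3 and 15% in all marked coding genes, but this order did not hold among short genes. Below 5 kb the percentage was 34.5 and 31.9% in members, beside 35.1 and 35.5%, and between 5 and 10 kb it was 19.3 and 19.2%, beside 22.5 and 23.5%.

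**Figure D2:**
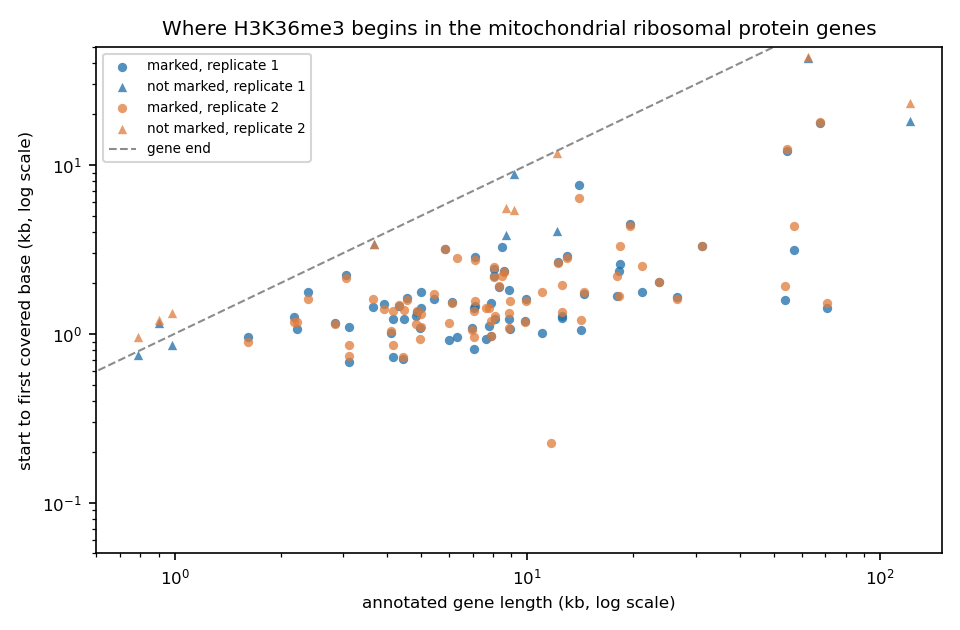
Distance from the annotated start to the first covered base (kb, log scale, y axis) against annotated gene length (kb, log scale, x axis) for the members. Circles are marked and triangles unmarked members, blue replicate 1 and orange replicate 2, and on the dashed line the first covered base would lie at the gene end; Mrps24 in replicate 1, at 0 bp, cannot be drawn on a log axis. Most points lie between 0.5 and 3 kb, several of the genes above 50 kb lie higher (Mrps9 at 12134 and 12486 bp), and the shortest genes lie near or above the line.

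The shortest distances were those of Mrps24 (0 and 225 bp), Mrps2 (680 and 734 bp), Mrpl12 (712 and 732 bp), Mrpl49 (725 and 857 bp) and Mrps17 (809 and 952 bp). The longest were those of Mrpl33 (17814 and 18072 bp), Mrps9 (12134 and 12486 bp), Mrpl35 (7586 and 6352 bp), Mrps5 (4472 and 4377 bp) and Mrpl1 (3145 and 4362 bp). They were followed by Mrps35 (3302 and 3296 bp), Mrps18c (3189 and 3190 bp) and Mrps31 (2573 and 3327 bp). These distances run from the start of the annotated span. From the start of the principal transcript, the distance was only 810 and 1068 bp in Mrpl33, and 4427 and 3193 bp in Mrpl35. In the other genes with the longest distances it was the same from both starts. Cytoplasmic ribosomal protein genes had a much shorter median distance, of 526 and 507 bp. Along the principal transcript of each marked member, the first covered base fell in exon 1 in 0 of 68 genes in both replicates. In all marked coding genes this share was 3.02 and 2.88%. It fell in intron 1 in 31 and 29 members (45.6 and 42.6%), beside 55.2 and 52.2%, and in intron 2 in 22 and 24 members (32.4 and 35.3%), beside 20.96 and 22.63%. The median length of intron 1 was 991 bp in marked members and 2649 bp in all marked coding genes.

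The start window, which reaches 500 bp to each side of the annotated start, was at least 10% covered in each replicate in 2 of 78 members (2.56%), beside 1.7% of all coding genes. These were Mrps24, with 90.5 and 59.2%, and Mrpl28, with 20.3 and 13.5%. The annotated span of Mrps24 reaches upstream into Urgcp, a gene on the same strand with 12.9 and 11.3% of its span in peaks, and when the span of the principal Mrps24 transcript was used, the distance to the first covered base was 1072 and 1253 bp. In Mrpl28 the first covered base after the start lay at 1096 and 859 bp, so the peaks in its window lay upstream of the start. The count was 1 with principal transcript spans, 1 with a window of 250 bp to each side and 8 with one of 1000 bp. In the profile around the start of the 69 marked members, the mean covered share was 1.12 and 0.145% in the first 250 bp of the gene. It was 25.5 and 20.8% between 1000 and 1250 bp, and 75.9 and 74.4% between 2250 and 2500 bp. In marked coding genes of 2 to 20 kb the last of these bins had 61.5 and 57.5%.

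**Figure D3:**
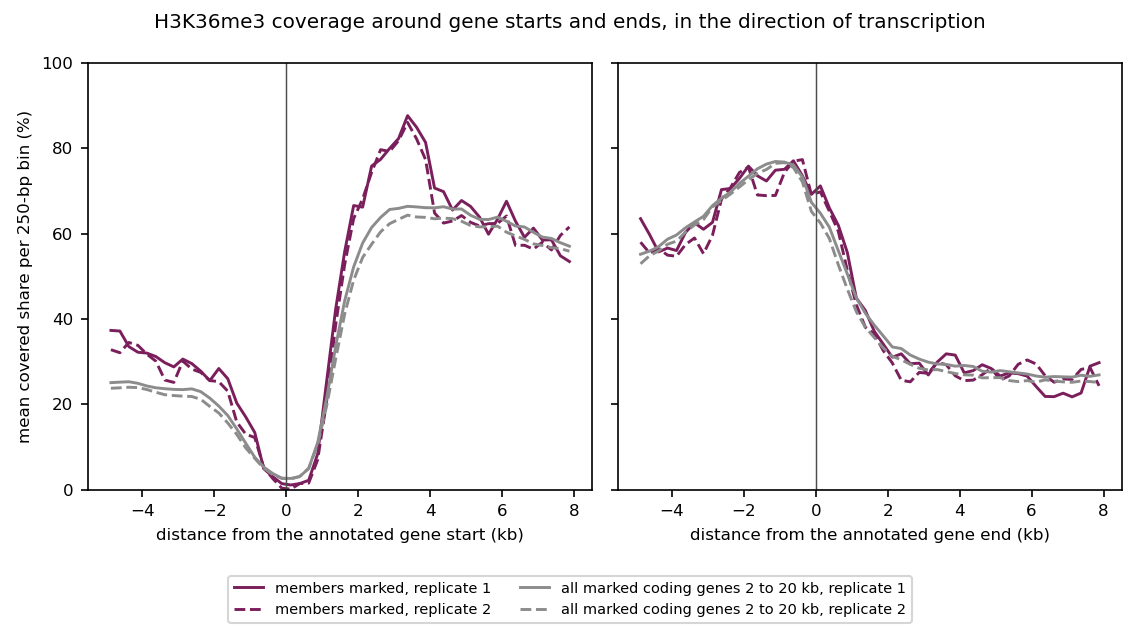
Mean covered share per 250-bp bin (%, y axis) against distance from the annotated gene start (left) and gene end (right), in kb and in the direction of transcription. Purple lines are the 69 marked members and grey lines the 3966 marked coding genes of 2 to 20 kb, solid for replicate 1 and dashed for replicate 2; bins run on past the far end of short genes. Both sets have a trough at the start. The members, which are of all lengths, reach a higher level between 2 and 4 kb and in the first 1000 bp after the gene end. In the first 250 bp after the end they have 71.2 and 69.8%, beside 64.8 and 62.5%. Farther downstream the curves mostly lie closer together.

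Within the body, the opening part was the least covered. When marked members of 3 kb or more were divided into 3 parts of equal length, the mean covered share from 5′ to 3′ was 35.0, 76.2 and 77.7% in replicate 1 and 32.9, 74.6 and 75.3% in replicate 2. In all marked coding genes of that length it was 34.4, 60.9 and 69.6%, and 31.0, 57.9 and 67.9%. By length class, the middle part was more covered in members except above 50 kb. The order of the 3′ part varied. It was 85.6 and 86.3% in members below 5 kb, beside 81.4 and 80.5%, and 77.0 and 73.3% between 5 and 10 kb, beside 77.9 and 77.0%. Between 10 and 20 kb it was 87.3 and 84.8%, beside 73.1 and 72.6%. Between 20 and 50 kb it was 68.4 and 68.8%, beside 68.5 and 66.4%, and above 50 kb 36.6 and 27.8%, beside 56.2 and 52.5%. In small subunit genes the middle part was more covered than the 3′ part (75.5 and 70.0% in replicate 1, 73.2 and 68.8% in replicate 2). Among 64 marked members of 3 kb or more, the 3′ part was more covered than the opening part in both replicates in 53 (82.8%). This share was close to the 85% of all marked coding genes of that length. Exons and introns were covered alike in the shorter members. Pooled over the 59 marked members below 20 kb, peaks held 66.2% ± 1.02 of exonic sequence and 65.8% ± 1.73 of intronic sequence (SD, n = 2), a ratio of 1.01 ± 0.0110. The same ratio was 1.17 ± 0.0348 in the 3968 marked coding genes below 20 kb. With the long members included it was 1.31 ± 0.0363 in 68 members and 1.55 ± 0.0872 in all marked coding genes. With equal weight per gene the ratios were 1.07 ± 0.0204 and 1.26 ± 0.0420.

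The mark often ran past the annotated end. Among the 24 marked members with no other annotated gene in the 5 kb downstream, 18 (75%) had coverage that crossed the end or resumed within 500 bp of it in both replicates, beside 51.7% of marked coding genes with such a clear flank. The median run-on was 768.5 and 858.5 bp in these 24 members, beside 469 and 317 bp. In the 17 of these members that overlap no other coding gene it was 652 and 404 bp, beside 469 and 310 bp in such coding genes. The order was not the same at every length. Below 5 kb the median was 0 bp in both replicates in 6 members, beside 876 and 702 bp in such coding genes. Between 5 and 10 kb it was 908.5 and 1034.5 bp in 10 members, beside 652 and 528 bp. The longer classes held 4, 1 and 3 such members, and their medians were also higher in members. The longest run-on of the 24 belonged to Mrpl28, with 4131 and 4872 bp, and it was longer than the 3114 bp of the gene itself. Mrps31 (2361 and 2254 bp) and Mrpl46 (2293 and 2276 bp) followed, then Mrpl13 (1509 and 1363 bp) and Mrps27 (1286 and 1219 bp). Mrpl44, whose product has an RNase III-like fold, had 809 and 1611 bp, Mrps11 had 1283 and 1120 bp, and Mrpl50 had 1253 and 1035 bp. No run-on was found in either replicate in Mrpl1, Mrpl11, Mrpl22, Mrpl32, Mrpl51 and Mrps26. In members with a gene close downstream the runs varied. That of Mrps34 extended 30539 and 28718 bp through Nme3 and Mapk8ip3, and that of Mrps25 extended 20278 and 21499 bp into Nr2c2, so in those genes the run-on cannot be ascribed to the member. Other runs stopped short of the neighbour: Mrps16 had none with Dnajc9 393 bp away, Mrpl2 had 73 and 75 bp with Cul7 197 bp away, and Mrpl38 had 354 and 385 bp with Trim65, which had 0% of its span in peaks, 688 bp away.

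**Figure D4:**
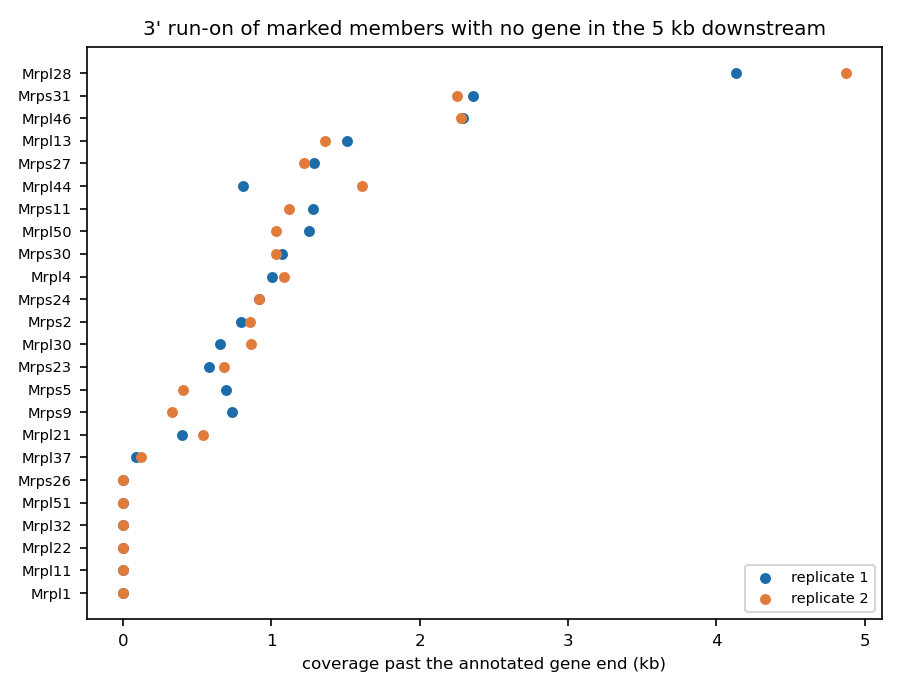
Length of coverage past the annotated gene end (kb, x axis) in the 24 marked members with no other gene in the 5 kb downstream; blue points are replicate 1 and orange points replicate 2. Mrpl28 stands at the top with 4131 and 4872 bp, and 6 members are at 0 in both replicates.

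Among the unmarked members, 6 of 9 had coverage past the gene end in both replicates, beside 3.72% of unmarked coding genes. Mrpl34, Mrpl53 and Mrpl41 are shorter than the distance at which the mark usually began. Mrpl34, of 789 bp, had its first covered base 749 and 960 bp after the start, and the run extended 2041 and 1964 bp past the end. Mrpl53, of 900 bp, had none within the gene, but coverage began 1164 and 1214 bp after the start and extended 1577 and 1306 bp past the end, with no annotated gene in the 5 kb downstream. All 900 bp of Mrpl53 also lie within Gm42688, a coding gene on the same strand with 9.17 and 0% of its span in peaks. The coverage past the end therefore cannot be ascribed to Mrpl53 alone. Mrpl41, of 982 bp, had its first covered base at 853 and 1325 bp, and the run continued into Dph7, which lies tail to tail with it. Dph7 had 83.2 and 88.1% of its span in peaks, so this run cannot be ascribed to Mrpl41 alone. In these genes a low covered share stood beside a covered flank. Mrpl43, the only other member below 2 kb, was marked with 34.4 and 44.9%, its coverage beginning at 954 and 890 bp of 1614 bp.

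The other 6 unmarked members are longer than 3 kb. Mrpl36, of 3666 bp, was covered over its last 242 and 243 bases only (6.60 and 6.63%), with a run-on of 1156 and 1272 bp. Its principal transcript ends upstream of these bases and had 0% in both replicates. Mrpl14 had 8.67 and 3.79% and a run-on of 1377 and 1021 bp, and Mrps36 had a run-on of 888 and 891 bp. Mrps33 had 2.63 and 5.14%, and a run-on of 491 bp in replicate 1 and none in replicate 2. Mrps28, the longest member with 121773 bp, had 2.78 and 2.17%, and Mrpl48, with 62551 bp, had 4.66 and 1.73%. Neither had any run-on. The share of 32-base words of the gene that occur once in the genome, a limit on what short reads can show, was 69.8% in Mrpl41, 77.1% in Mrps28 and 78.8% in Mrps36, and its part in their low coverage was not tested. The unmarked Mrpl34 and Mrpl53 had 100%, Mrpl36 had 94.8%, Mrpl14 had 93.4% and Mrps33 had 90.5%, while the marked Mrpl45 had 75.3% with 69.6 and 67.9% of its span covered.

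Some low shares among marked members went with the annotated span. Mrpl33 is annotated over 67450 bp and overlaps Rbks; over its principal transcript alone the covered share was 74.6 and 74.1%. For Mrps24 it was 65.9 and 60.6% over the principal transcript, against 30.6 and 29.1% over the whole span. Mrps34 went the other way: its principal transcript had 0% in both replicates, and the 25.7 and 32.2% of the whole span came from the part downstream of it. All 2387 bp of Mrps34 lie within Mapk8ip3, on the opposite strand, and 1003 bp of them also lie within Nme3. Mrps6, a member of 53958 bp with 25.8 and 24.2%, shares 29152 bp with Slc5a3 on the same strand. Mrps9 (35.3 and 26.3%), Mrps18c (31.0 and 26.7%) and Mrpl57 (27.5 and 30.0%) completed, with Mrpl1, Mrpl23 and Mrps12 above, the 10 marked members of lowest share. Mrps27, of 70777 bp, was the only member above 50 kb with at least 50% covered in each replicate (61.4 and 55.7%).

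Many members share a start region with another gene. In 33 of 78 members (42.3%) the start of a coding gene on the opposite strand lay within 1 kb, a head-to-head arrangement held by 10.8% of all coding genes. This is a property of the annotation and not of the ChIP. Both sides were marked in 24 of the 33 members, the member alone in 5, the partner alone in 3 and neither in 1. These states were not counted over all head-to-head coding genes. Of the 33 members, 29 were marked (87.9%), beside 65.2% of the 2376 head-to-head coding genes. A marked partner was found for 27 of the 33 members, beside 1549 of these 2376 genes. Mrps11 (chromosome 7, 78783119 to 78792989, plus strand) and Mrpl46 (78775236 to 78783531, minus strand) are partners of each other, and their spans overlap by 413 bp. Mrps11 had 77.3 and 74.7% and Mrpl46 had 73.6 and 70.2%, and the uncovered stretch between their marked parts measured 2671 and 2674 bp. Over the 23 pairs with both sides marked, this stretch had a median of 3131 and 3445 bp. It was shortest, at 1107 and 1286 bp, between Mrpl49 and Fau, which encodes a cytoplasmic ribosomal protein fused to a ubiquitin-like protein.

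**Figure D5:**
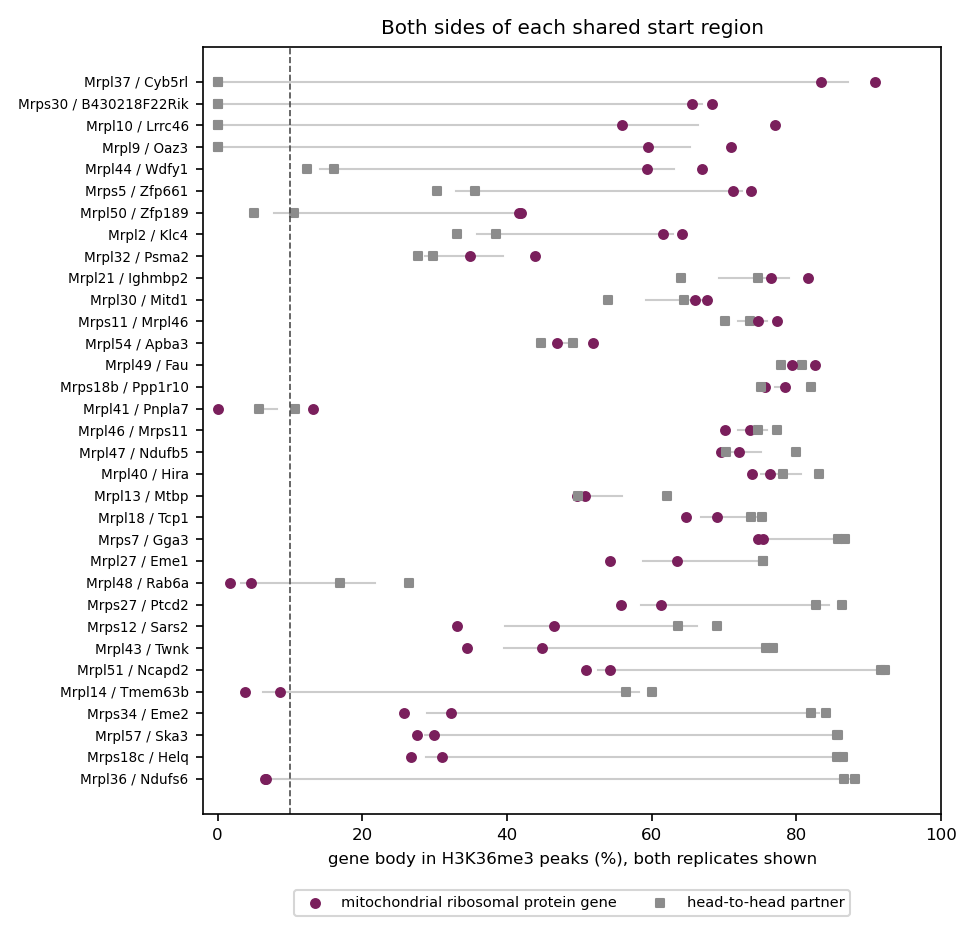
Covered share of the annotated span (%, x axis) of the 33 members with a head-to-head partner (purple circles) and of that partner (grey squares), 1 point per replicate; the dashed line is the 10% threshold, and the pair of Mrps11 and Mrpl46 appears from both sides. Pairs are ordered by member minus partner, so members with an uncovered partner stand at the top and uncovered members with a covered partner at the bottom.

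In 8 pairs only the member or only the partner was marked. Mrpl37, Mrpl10, Mrpl9 and Mrps30 were marked while Cyb5rl, Lrrc46, Oaz3, a testis antizyme gene, and B430218F22Rik had 0% in both replicates. Mrpl50 (41.6 and 41.9%) stood opposite Zfp189 (10.5 and 5.07%). In the other direction, Mrpl36 with 6.60 and 6.63% stood opposite Ndufs6, a complex I subunit gene with 86.5 and 88.1%, and Mrpl14 with 8.67 and 3.79% stood opposite Tmem63b with 60.0 and 56.5%. Mrpl48 stood opposite Rab6a, which had 26.5 and 16.9%. Both genes were marked where Mrps12 meets Sars2, the mitochondrial seryl-tRNA synthetase gene (33.0 and 46.5% against 63.7 and 69.0%), and where Mrps27 meets Ptcd2, which encodes a mitochondrial RNA-binding protein (61.4 and 55.7% against 82.8 and 86.3%).

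The DNA between the annotated starts was read in 16 head-to-head pairs, where it measured 25 to 174 bases. Only short regions were taken, so their length was set by the choice. Pairs with overlapping spans have no such DNA. Mrpl2 with Klc4 (206 bases) and Mrpl41 with Pnpla7 (934 bases) were left out as longer. Of the 16 regions, 7 are shown, from pairs marked on both sides and pairs marked on the member's side only. In pairs marked on both sides, these bases lie within the longer uncovered stretch described above. The 7 regions were chosen with the motif matches known, and each holds at least 1. The sequences are from GRCm38, the assembly of mm10, 5′ to 3′ on the member's strand, so the partner's start lies just before the first base and the member's start just after the last. The regions are chr19:6057786-6057843 (minus strand), chr5:100798599-100798626 (plus), chr13:99344706-99344785 (plus), chr6:125191702-125191800 (plus), chr7:28741821-28741991 (minus), chr4:107066869-107066987 (minus) and chr11:97041408-97041559 (plus). Capitals mark matches, on either strand, to an ETS motif (CCGGAAGT), an NRF1 motif (GCGCANGC) or a CCAAT box (CCAAT). Fau, Helq, Ptcd2, Ncapd2 and Sars2 are marked partners, and Cyb5rl and Lrrc46 are uncovered partners.
Fau to Mrpl49: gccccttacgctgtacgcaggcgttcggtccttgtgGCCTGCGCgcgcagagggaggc
Helq to Mrps18c: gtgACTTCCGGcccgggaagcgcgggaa
Ptcd2 to Mrps27: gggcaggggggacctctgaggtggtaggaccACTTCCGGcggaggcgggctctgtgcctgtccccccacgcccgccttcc
Ncapd2 to Mrpl51: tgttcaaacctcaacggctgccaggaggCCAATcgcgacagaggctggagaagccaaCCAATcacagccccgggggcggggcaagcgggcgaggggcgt
Sars2 to Mrps12: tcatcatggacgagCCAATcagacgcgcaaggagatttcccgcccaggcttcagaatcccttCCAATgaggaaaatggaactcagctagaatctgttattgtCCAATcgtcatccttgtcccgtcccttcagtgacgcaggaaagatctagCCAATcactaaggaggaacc
Cyb5rl to Mrpl37: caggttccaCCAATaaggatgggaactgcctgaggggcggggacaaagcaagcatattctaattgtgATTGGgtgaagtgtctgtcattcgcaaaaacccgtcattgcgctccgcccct
Lrrc46 to Mrpl10: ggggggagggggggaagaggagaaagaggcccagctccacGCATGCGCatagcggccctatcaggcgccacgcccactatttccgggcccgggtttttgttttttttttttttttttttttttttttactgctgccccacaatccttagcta

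Over all 16 regions, an ETS match stood in 2 (Mrps18c and Mrps27), an NRF1 match in 3 (Mrpl49, Mrpl10 and Mrps18b) and a CCAAT box in 6 (Mrpl51, Mrps12, Mrpl37, Mrpl32, Mrpl40 and Mrpl50). The regions of Mrpl30, Mrpl54, Mrpl57, Mrps34 and Mrps5 held none of these letters. The same letters were counted in RefSeq promoter windows (GRCm38.p6, 250 bases before to 50 after the start), which matched 69 of 78 members and 16522 coding genes in all. The ETS motif was found in 12 of 69 members (17.4%), beside 5.94% of all windows, and the NRF1 motif in 22 members (31.9%), beside 15.3%. A YY1 motif (AAGATGGCG) was found in 8 members (11.6%), beside 2.25%, and the CCAAT box in 27 members (39.1%), beside 42.1%. The windows of the members had a median GC content of 58.3%, beside 57%, and a median ratio of observed to expected CpG of 0.818, beside 0.598. Some of these windows belong to both genes of a head-to-head pair. The matches are letters found in a window, with no measurement of binding.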

How the data were processed

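H3K36me3 ChIP-seq peaks of 2 replicates of E14TG2a.4 cells were analysed. The sets used came from 2 processing runs on mm10, per the deposited file lists, and the authors called peaks for each replicate. No aligner, caller or read depth is given in the sources used here, so no precision from depth can be given, and p-values were not computed. Each deposited peak carries a fold (a ratio over background) and a −log10 q as the authors' caller wrote them. The fold was used only to describe coverage within a set, and −log10 q only for a stricter alternative. The control libraries were not used here.

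The main sets were the peaks supported by pseudoreplicates of each library. Gene models were GENCODE M21: 21938 coding records on chromosomes 1 to 19, X and Y, of which 27 repeats of a symbol were left out, the longest record being kept. Coverage was taken over the full span of each gene. Peaks up to 500 bp apart were joined for the run-on. No condition was compared, and counts and medians stand beside all coding genes without a test. By rule, the genes named are all unmarked members, the 10 marked members of highest and the 10 of lowest covered share, the 8 with the largest difference between replicates, the 8 longest and 5 shortest distances to the mark, the 8 longest run-ons with a clear flank, those with a covered start window, the 5 of highest fold and the 5 longest; other genes, among them the pairs, were chosen after their values were seen. The members and lists were chosen with earlier results of these data known, and the search past the gene end, the place of the mark in the principal transcript and the promoter motifs were added after the values were seen. Measures were checked on simulated peaks placed on real gene models. The cells are of strain 129/Ola, and the reference is C57BL/6J, so regions that differ may be under-covered. Calculations used Python 3.11.15 with numpy 2.4.6.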

Additional observations from a re-analysis of the deposited data

How the results depend on the processing

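Each measure was recomputed under the alternatives. The number of marked members stayed within 47 (of 52, members that overlap no other coding gene) and 72 under every choice of peaks, genes and span. It was 72 with the unthresholded peaks of the other run, 68 with −log10 q of at least 5, 72 with the peaks found in both replicates, 68 with the principal transcript span, and 69 and 71 when replicate 1 or replicate 2 was left out. The unthresholded peaks added Mrpl14, Mrps33 and Mrps36, the peaks found in both replicates added Mrpl41, Mrps33 and Mrps36, the stricter q lost Mrpl1 and the principal span lost Mrps34. Thresholds of 5, 25 and 50% gave 71, 65 and 50. The median covered share was 65.5% with the unthresholded peaks and 68.9% with the peaks found in both replicates. The median distance to the first covered base was 1416 and 1308 bp with these 2 sets and 1435.25 bp with the principal span. The median run-on was 947 and 958 bp with them, 528 bp in members that overlap no other coding gene, and 920.5 bp with joining over 1000 and over 3000 bp. The exon to intron ratio was 1.26 with the unthresholded peaks, 1.27 with the stricter q, 1.23 with the peaks found in both replicates and 1.20 without overlapping genes; it was not run on the principal span. Members with a covered start window numbered 1 without overlapping genes, 1 with the principal span, and 1 and 8 with windows of 250 and 1000 bp. The cause of these shifts was not tested. No paired analysis was possible because there is 1 group. The unknown depth limits how far uncovered genes can be called unmarked.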
